A study of Mus musculus with 6 samples.

Results

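The insulin-like growth factor (IGF) axis was followed in embryonic mouse kidneys, taken whole at day 12.5 of gestation, through 9 genes: the ligand gene Igf1, the receptor genes Igf1r, Igf2r and Insr, and the binding protein genes Igfbp2, Igfbp3, Igfbp4, Igfbp5 and Igfbp7. Every probe set that the platform annotation assigns to one of these symbols alone was taken, which gave 28 of the 45101 probe sets on the array, and 22 of them, with at least 1 per gene, were bright enough to be tested. The 2 groups were wild-type and Ret-deficient kidneys, both on the C57BL/6 strain, each with 3 biological replicates hybridised to 1 array apiece. The titles and genotype fields call the kidneys Ret-deficient while the source field attaches the knockout to the pregnant female, and the former was followed. Allele, litter and number of embryos per sample are not stated in the labels. RNA was measured as Affymetrix MAS5 signal intensity, a linear brightness per probe set scaled by the authors to a common level on every array.

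IGF1 and IGF2 are small secreted growth factors that act through the IGF1 receptor, a tyrosine kinase related to the insulin receptor. The IGF2 receptor binds IGF2 and carries it to the lysosome instead of passing on a growth signal, and its gene is imprinted in the mouse. The IGF-binding proteins hold the ligands outside the cell and can block or prolong their action. IGFBP7 binds IGFs far more weakly than the others. Ret is the receptor through which GDNF drives the outgrowth and branching of the ureteric bud, the epithelium of the future collecting ducts. The comparison asks how the RNA of the kidney differs without this receptor.

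There were 2 arrays that stood apart, in different ways. The labels held for Ret, whose brighter probe set read 10193 to 13315 in wild-type and 93.3 to 479.8 in Ret-deficient kidneys. In wild-type replicate 1 the ratio of the 3 prime to the 5 prime control probe set was 10.7 for beta-actin and 4.91 for Gapdh, against 3.88 to 5.21 and 1.86 to 2.31 on the other 5 arrays. A high ratio is a sign of shortened RNA or incomplete copying. Ret-deficient replicate 1 lacked most of the signal of the ureteric epithelium, with 4 of 12 tested markers, Cdh1, Cldn3, Cldn7 and Calb1, no brighter than the brightest bacterial control probe set, which served as a gauge of background. The summed signal of those 12 markers was 7698 there, 51604 to 63911 on the other Ret-deficient arrays and 73073 to 84951 on the wild-type arrays. Results are therefore given with and without these arrays.

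Promoter sequences from RefSeq (GRCm38.p6) were found for 8 of the 9 genes, and 3 of them are shown to place the genes that recur below. Each line holds the 250 bases before the annotated transcript start, 5′ to 3′ on the gene's strand, with capitals for exact matches on either strand to 1 of 3 common promoter motifs. The first, which in some promoters fixes where transcription starts, was searched as TATAAA. The second, a binding site of the factor NF-Y, was searched as CCAAT. The last, the GC box to which Sp-family factors bind, was searched as GGGCGG. Igf1 is shown as the only gene of the group without overlap between genotypes at its brightest probe set. That was so at 11.8% of all tested genes. Igf1r is shown as the receptor for the product of Igf1, and Igfbp4 because it alone held the first motif.
Igf1, chr10:87860861-87861110, plus strand: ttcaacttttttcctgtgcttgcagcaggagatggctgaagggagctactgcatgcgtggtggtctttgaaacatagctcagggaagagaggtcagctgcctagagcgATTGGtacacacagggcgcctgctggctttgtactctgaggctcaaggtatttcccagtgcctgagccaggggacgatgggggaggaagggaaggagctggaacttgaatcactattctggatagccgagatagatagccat
Igf1r, chr7:67952007-67952256, plus strand: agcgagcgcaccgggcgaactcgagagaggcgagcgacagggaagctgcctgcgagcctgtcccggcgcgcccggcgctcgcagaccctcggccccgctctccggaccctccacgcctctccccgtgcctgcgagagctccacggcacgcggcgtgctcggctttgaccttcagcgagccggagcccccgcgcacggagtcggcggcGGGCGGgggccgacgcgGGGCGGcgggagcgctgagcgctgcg
Igfbp4, chr11:99040994-99041243, plus strand: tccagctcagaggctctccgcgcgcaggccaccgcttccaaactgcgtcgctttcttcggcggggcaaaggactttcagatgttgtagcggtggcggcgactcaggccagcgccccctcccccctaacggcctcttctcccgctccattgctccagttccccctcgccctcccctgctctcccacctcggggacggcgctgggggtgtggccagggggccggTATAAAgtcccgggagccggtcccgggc
The Igf1 window had 52.8% G or C and 5 CpG dinucleotides, close to the medians of 52.4% and 6 over all 32851 windows in the table. The Igf1r window had 77.6% and 42 CpG dinucleotides, and 2 GC boxes starting 43 and 26 bases before the transcript start. In Igf1 the 1 match was a CCAAT box on the opposite strand, whose first printed base lay 142 bases before the start, and in Igfbp4 the TATAAA began 28 bases before it. Over all windows TATAAA occurred in 12.4%, CCAAT in 33.8% and GGGCGG in 32.7%. Igf2r and the upstream of 2 Igfbp2 windows held 3 GC boxes each and Igfbp7 held 4, while Igfbp3, Igfbp5 and the other Igfbp2 window held none of the 3 motifs. No printed match overlapped another. The arrays measured RNA and not activity at these sequences.

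In the limma fit none of the 22 tested probe sets had an adjusted p under 0.05, and neither had any of the 22519 probe sets tested on the whole array (0%). At an unadjusted p under 0.05 there were 2 of the 22, both of Igf1 and both lower in Ret-deficient kidneys, where 2.74% of all tested probe sets were lower at that level. Adjusted p lay between 0.884 and 0.999. The arrays of the 2 groups did not overlap at 3 of the 22 probe sets, or 13.6%, against 10.8% of all tested probe sets. All 3 were probe sets of Igf1, so they share 1 gene, and all were lower. Of all 22519 tested probe sets 5.57% were both separate and lower. The median log2 difference, Ret-deficient minus wild-type, was -0.044 over the 22 probe sets and -0.010 over all tested probe sets. In sign 13 were negative and 9 positive, and 51.7% of all tested probe sets were negative. By brightest probe set 5 genes were negative and 4 positive, and the groups did not overlap at Igf1 alone. Of all tested genes, 11.8% had groups that did not overlap by brightest probe set.

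**Figure D1:**
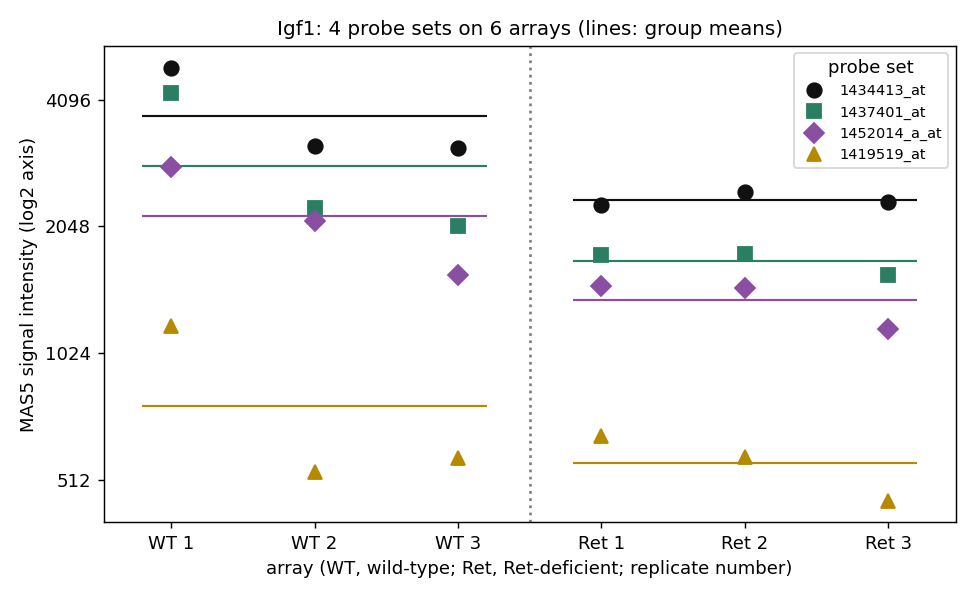
MAS5 signal of the 4 Igf1 probe sets (log2 axis) on the 6 arrays, with lines at the mean of each group. At 1434413_at the wild-type arrays read 3149.7 to 4880.3 and the Ret-deficient arrays 2297 to 2469.9, and wild-type replicate 1 was the highest array at all 4 probe sets.

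Igf1, the gene of the circulating and locally made ligand IGF1, read lower on every Ret-deficient array at 3 of its 4 probe sets. The brightest, 1434413_at, read 4880.3, 3178 and 3149.7 in wild-type replicates 1, 2 and 3, and 2297, 2469.9 and 2343 in Ret-deficient replicates 1, 2 and 3. The 3 Ret-deficient arrays lay close together and below the lowest wild-type array, and wild-type replicate 1 stood well above all others. The group means were 3736 ± 991.2 and 2370.1 ± 89.5 (SD, n = 3), and the log2 difference was -0.62 (SE 0.21; 95% interval -1.13 to -0.11), a wild-type level 1.54-fold that of Ret-deficient kidneys. The adjusted p in limma was 0.884. A two-sided exact permutation test returned p = 0.1, which is the smallest it can give for 3 arrays against 3.

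The next 2 Igf1 probe sets had the same order of groups. Probe set 1437401_at read 4255, 2259 and 2055 in wild-type and 1749, 1757 and 1574 in Ret-deficient kidneys (log2 difference -0.67, SE 0.29, limma adjusted p = 0.922). Probe set 1452014_a_at read 2828, 2104 and 1570.1 in wild-type and 1477, 1460.5 and 1171 in Ret-deficient kidneys (log2 difference -0.62, SE 0.25, limma adjusted p = 0.921). The dimmest, 1419519_at, did not separate the groups: it read 1191, 535.2 and 577.5 in wild-type and 649.5, 579.8 and 457.4 in Ret-deficient kidneys (log2 difference -0.36, SE 0.33). Beyond replicate 1, its wild-type arrays lay among the Ret-deficient ones.

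The size of the Igf1 difference rested in part on wild-type replicate 1, the array with the high 3 prime to 5 prime ratios. Without it the log2 difference of the brightest probe set was -0.41 (SE 0.14; adjusted p = 0.951), and -0.35 and -0.41 at 1437401_at and 1452014_a_at, and the groups still did not overlap at these 3 probe sets. With all arrays centred on their medians the groups overlapped at 1452014_a_at and stayed apart at the other 2. With wild-type replicate 1 left out and no centring, the log2 difference at 1419519_at was 0.00 (SE 0.20). Without Ret-deficient replicate 1, the array with the least epithelial signal, the brightest probe set gave -0.60 (SE 0.26). Without both arrays it gave -0.39 (SE 0.16; adjusted p = 0.817). In whole-kidney RNA, fewer cells that make a transcript and less transcript per cell cannot be told apart.

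**Figure D2:**
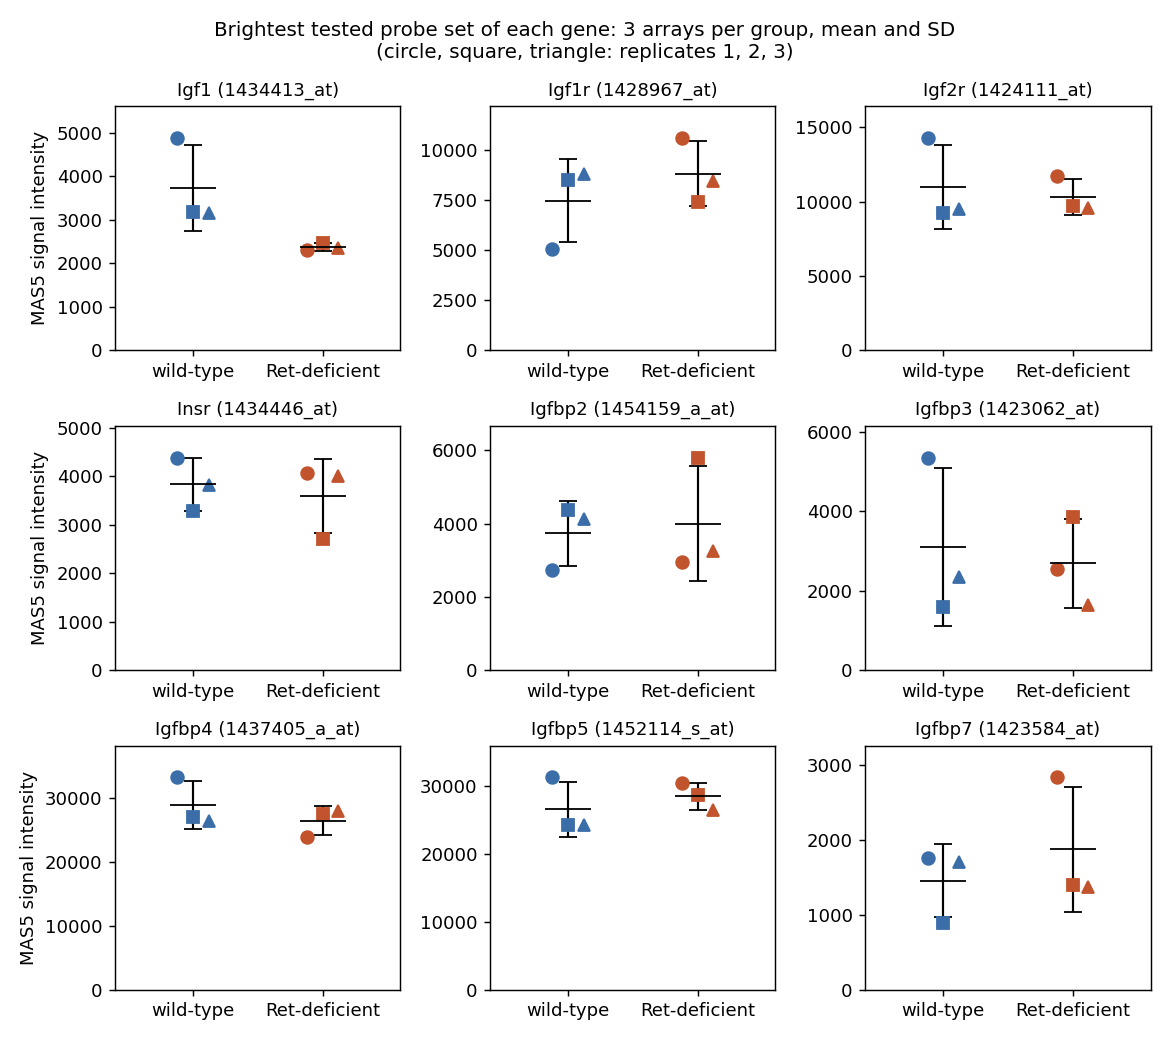
MAS5 signal (linear axis from 0) of the brightest tested probe set of each of the 9 genes in the wild-type and Ret-deficient arrays; circles, squares and triangles are replicates 1, 2 and 3, and bars give the mean and SD. The groups are apart at Igf1 and overlap at the other 8 genes, while 11.8% of all tested genes are apart by brightest probe set.

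The growth-promoting receptors overlapped between the groups. Igf1r, which encodes the receptor for both IGF ligands, read 5076, 8499 and 8789 in wild-type and 10578, 7408 and 8437 in Ret-deficient kidneys at its brightest probe set, 1428967_at. The lowest value was that of wild-type replicate 1, and the other wild-type arrays lay inside the Ret-deficient range. These gave a log2 difference of 0.27 (SE 0.27; 95% interval -0.37 to 0.91; adjusted p = 0.957), and 0.01 (SE 0.20) without wild-type replicate 1. A second probe set, 1452982_at, read 2515, 3457 and 4158 in wild-type and 4493, 3213 and 4307 in Ret-deficient kidneys, with wild-type replicate 1 again the lowest array, and 1426565_at, the dimmest of those tested, had a log2 difference of 0.08 (SE 0.31). There wild-type replicate 1 was the highest array instead, at 708.3 against 306.7 to 540.3 elsewhere. Of the 2 Igf1r probe sets too dim to test, 1452108_at read no brighter than the bacterial controls on 2 arrays and 1446303_at on 5.

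Insr, which encodes the insulin receptor, read 4384, 3292 and 3829 in wild-type and 4077, 2701 and 4003 in Ret-deficient kidneys at its 1 tested probe set. The ranges of the groups overlapped, with replicate 2 the lowest in each. The log2 difference of Insr was -0.11 (SE 0.22, 95% interval -0.64 to 0.43), and -0.01 (SE 0.24) without wild-type replicate 1. Its other 2 probe sets were dim, 1421380_at at 20.3 to 193.1 and 1450225_at at 9.2 to 67.7, the latter below the bacterial controls on all 6 arrays.

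Igf2r, the imprinted receptor that clears IGF2, read 14270.1, 9217 and 9504 in wild-type and 11722, 9715 and 9570.0 in Ret-deficient kidneys at 1424111_at. The highest value on either side was that of replicate 1, and the other 4 arrays lay within a narrow band. The log2 difference was -0.07 (SE 0.22; 95% interval -0.60 to 0.47). Its sign turned to 0.14 (SE 0.17) without wild-type replicate 1, and to 0.05 when arrays were centred on their medians. Without wild-type replicate 1 the remaining groups did not overlap, as was so at 21.5% of all tested probe sets. The dimmer 1424112_at repeated the pattern over arrays, with 2729, 1247 and 1335 in wild-type and 2241, 1288 and 1265 in Ret-deficient kidneys. There the groups overlapped with and without wild-type replicate 1. A probe set that the annotation shares between Igf2r and its antisense gene Airn was not used.

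**Figure D3:**
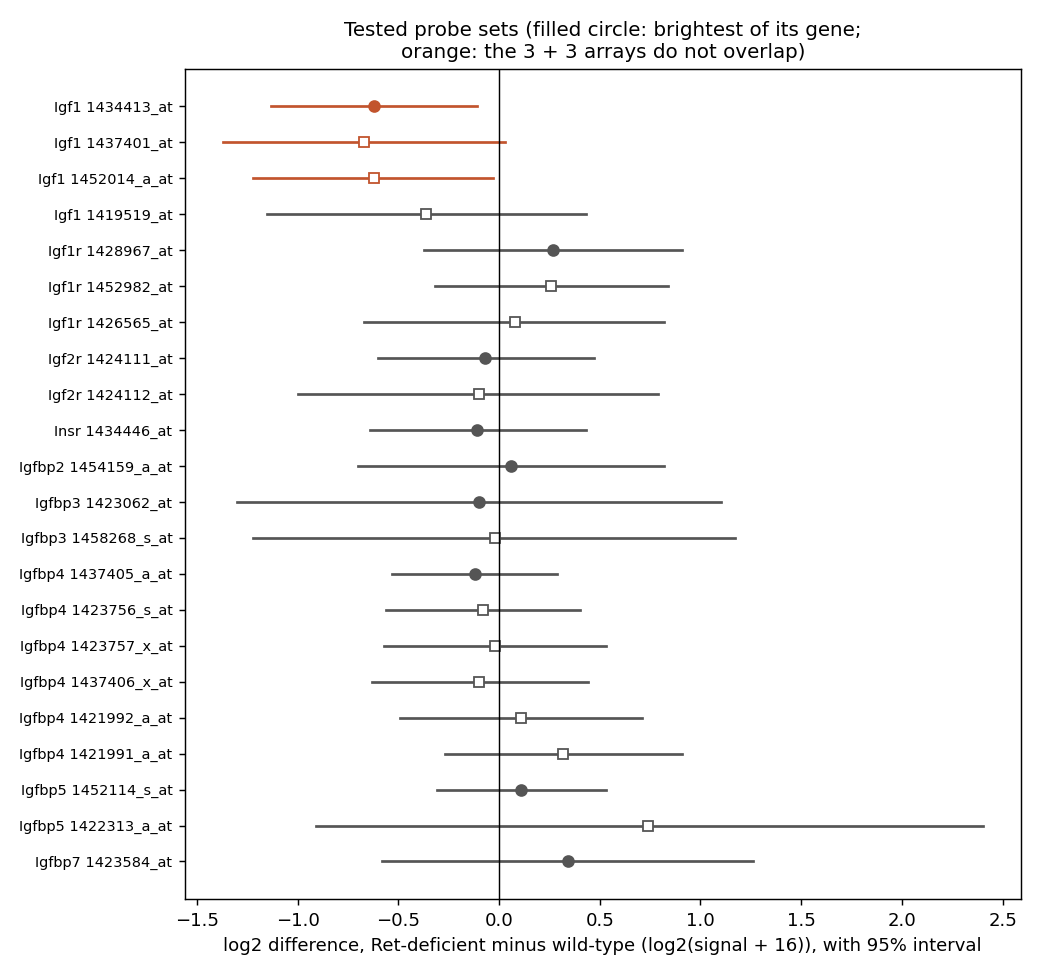
Log2 difference (Ret-deficient minus wild-type, on log2(signal + 16)) with its 95% interval for each of the 22 tested probe sets, grouped by gene. The 3 Igf1 probe sets whose arrays do not overlap lie at -0.62 to -0.67, the widest interval is that of Igfbp5 1422313_a_at, from -0.91 to 2.40, and every tested interval spans 0 except those of Igf1 1434413_at and 1452014_a_at.

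Among the binding proteins, Igfbp4 and Igfbp5 had the narrowest intervals at their brightest probe sets. Igfbp4 encodes an inhibitor of IGF action that the protease PAPP-A cleaves. At 1437405_a_at it read 33177, 26944 and 26409.9 in wild-type and 23814, 27442 and 27996 in Ret-deficient kidneys. Apart from replicate 1, the highest array in wild-type and the lowest in Ret-deficient kidneys, the arrays lay close to one another. For this probe set the log2 difference was -0.12 (SE 0.17; 95% interval -0.53 to 0.29), and 0.06 (SE 0.16) without both arrays that stood apart. The 6 Igfbp4 probe sets, all tested, gave log2 differences from -0.12 to 0.32, 4 negative and 2 positive, and in each the groups overlapped. The largest, at 1421991_a_at, came from 501.1, 608.6 and 823.5 in wild-type against 874.6, 903.2 and 628.2 in Ret-deficient kidneys (SE 0.25; adjusted p = 0.95), where Ret-deficient replicate 3 lay among the wild-type values.

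Igfbp5, whose product binds to the extracellular matrix, gave different pictures at its 2 probe sets. At 1452114_s_at it read 31297, 24208 and 24211 in wild-type and 30470.0, 28629 and 26467 in Ret-deficient kidneys. All 3 Ret-deficient arrays exceeded wild-type replicates 2 and 3, and wild-type replicate 1 exceeded them all. The log2 difference was 0.11 (SE 0.18; 95% interval -0.31 to 0.53) and 0.23 (SE 0.15; adjusted p = 0.98) without wild-type replicate 1. At 1422313_a_at wild-type replicate 1 read 1081 and the other 5 arrays 5626 to 7142. The log2 difference of 0.74 (SE 0.69) there became -0.13 (SE 0.16) without that array. The 2 probe sets thus had wild-type replicate 1 as their highest and their lowest array, and the part of its 3 prime to 5 prime ratios in this was not tested.

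Igfbp2 and Igfbp3 varied within both groups more than between them. Igfbp2 read 2723, 4365 and 4113 in wild-type and 2951, 5798 and 3254 in Ret-deficient kidneys, with Ret-deficient replicate 2 the highest array. Its log2 difference was 0.06 (SE 0.32; 95% interval -0.70 to 0.82), with the sign turning to -0.15 without wild-type replicate 1 and to -0.24 without Ret-deficient replicate 2. Igfbp3, the main carrier of IGFs in blood, read 5346, 1584 and 2354 in wild-type and 2556, 3861 and 1639.6 in Ret-deficient kidneys at 1423062_at. Wild-type replicates 1 and 2 were the highest and the lowest of all 6 arrays. The log2 difference was -0.10 (SE 0.50; 95% interval -1.30 to 1.10), and the sign turned to 0.39 (SE 0.40) without wild-type replicate 1. The second Igfbp3 probe set, 1458268_s_at, ordered the arrays in much the same way, at 1142, 407.0 and 616.0 in wild-type and 744.7, 1048 and 349.5 in Ret-deficient kidneys.

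Igfbp7, found in vessel walls and matrix, read 1768, 896.2 and 1712 in wild-type and 2841, 1407 and 1380.0 in Ret-deficient kidneys at its 1 tested probe set, 1423584_at. The highest value was that of Ret-deficient replicate 1, and the other Ret-deficient arrays lay between the wild-type ones. The log2 difference of 0.34 (SE 0.38; 95% interval -0.58 to 1.26) came to -0.0022 (SE 0.34) without Ret-deficient replicate 1 and to 0.51 (SE 0.44) without wild-type replicate 1. The 2 dim probe sets read no brighter than the bacterial controls on 3 arrays (1423585_at) and on all 6 (1437804_at).

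The 95% intervals set what these arrays can tell. For Igfbp4 and Igfbp5 at their brightest probe sets they ran from 0.69-fold to 1.22-fold and from 0.81-fold to 1.44-fold. For Igfbp3 the interval was 0.41-fold to 2.14-fold, so at these probe sets larger changes of Igfbp3 could have gone undetected. At the dimmer Igfbp5 probe set, 1422313_a_at, the interval was wider still, from 0.53-fold to 5.28-fold. Exact permutation tests were run for the brightest probe set of each of the 9 genes, and apart from Igf1 the p ranged from 0.5 to 1.

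**Figure D4:**
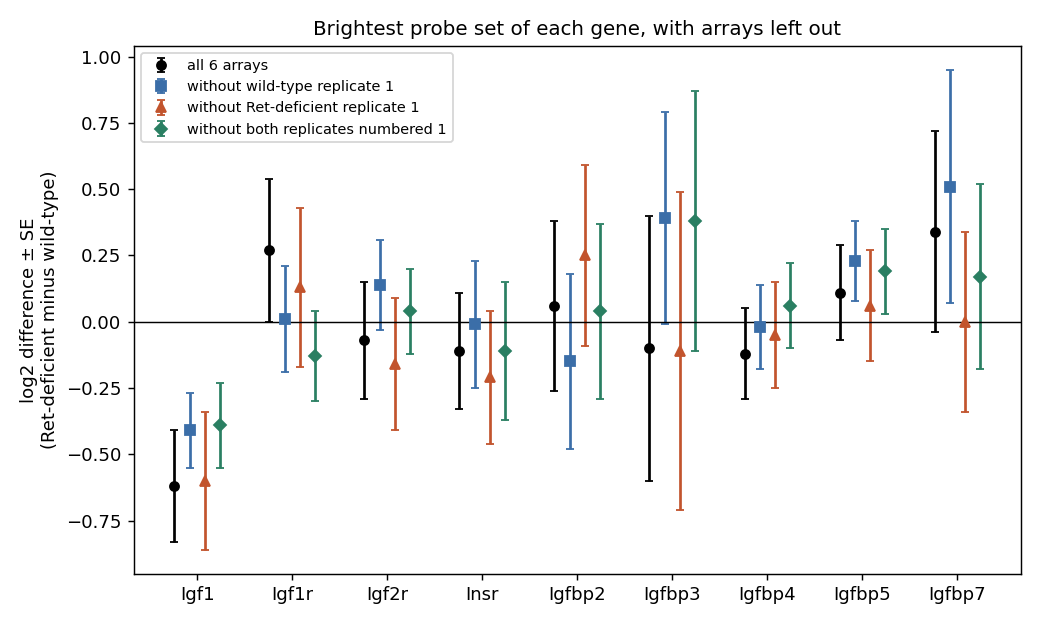
Log2 difference ± SE (Ret-deficient minus wild-type) of the brightest probe set of each gene with all 6 arrays and with replicate 1 of either or both groups left out. Igf1 stays below 0 in all 4 fits, from -0.62 to -0.39, while Igf1r, Igf2r, Igfbp2, Igfbp3 and Igfbp4 cross 0 and Igfbp7 goes from 0.34 to near 0 without Ret-deficient replicate 1.

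Wild-type replicate 1 was the most divergent array for the group. It was the highest of the 6 arrays at 13 and the lowest at 6 of the 22 tested probe sets, whereas over all tested probe sets it was the highest at 25.2% and the lowest at 24.1%. Ret-deficient replicate 1 was the highest at 6 and the lowest at 2, against 17.6% and 18.8% of all tested probe sets. Without wild-type replicate 1 the remaining groups did not overlap at 6 of the 22 probe sets, 3 of Igf1 on the lower side and 1 each of Igf2r, Igfbp4 and Igfbp5 on the higher side, against 21.5% of all tested probe sets. Without both replicates numbered 1, which leaves 2 arrays per group, they did not overlap at 9 of the 22, against 36.7% of all tested probe sets.

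Markers of other cell types were set beside these values. All 12 tested ureteric epithelium markers had log2 differences below 0 (median -1.23). None passed an adjusted p of 0.05. The groups did not overlap at 5 of the 12, against 11.8% of all tested genes by brightest probe set. In Ret-deficient replicates 1, 2 and 3 the median marker stood at -3.14, -0.33 and -0.70 relative to the wild-type mean. Igf1 stood at -0.67, -0.56 and -0.64 in the same arrays. Of 12 renal stroma markers 10 had a positive log2 difference, 6 of them without overlap, against the same 11.8%. The summed signals of the 12 were 132019.6 to 151185 in wild-type and 165061 to 206055 in Ret-deficient kidneys. The log2 difference was positive at all 6 tested macrophage markers, with overlapping groups at each, and summed signals of 19283 to 30089.7 against 24635 to 67231, the highest in Ret-deficient replicate 3. The only tested neural crest marker, Sox10, read 3362 to 6971 in wild-type and 1100.4 to 2268 in Ret-deficient kidneys. No marker of these lists passed the adjusted p either. The part of epithelium, stroma, macrophages and neural crest in the Igf1 values was not tested.

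**Figure D5:**
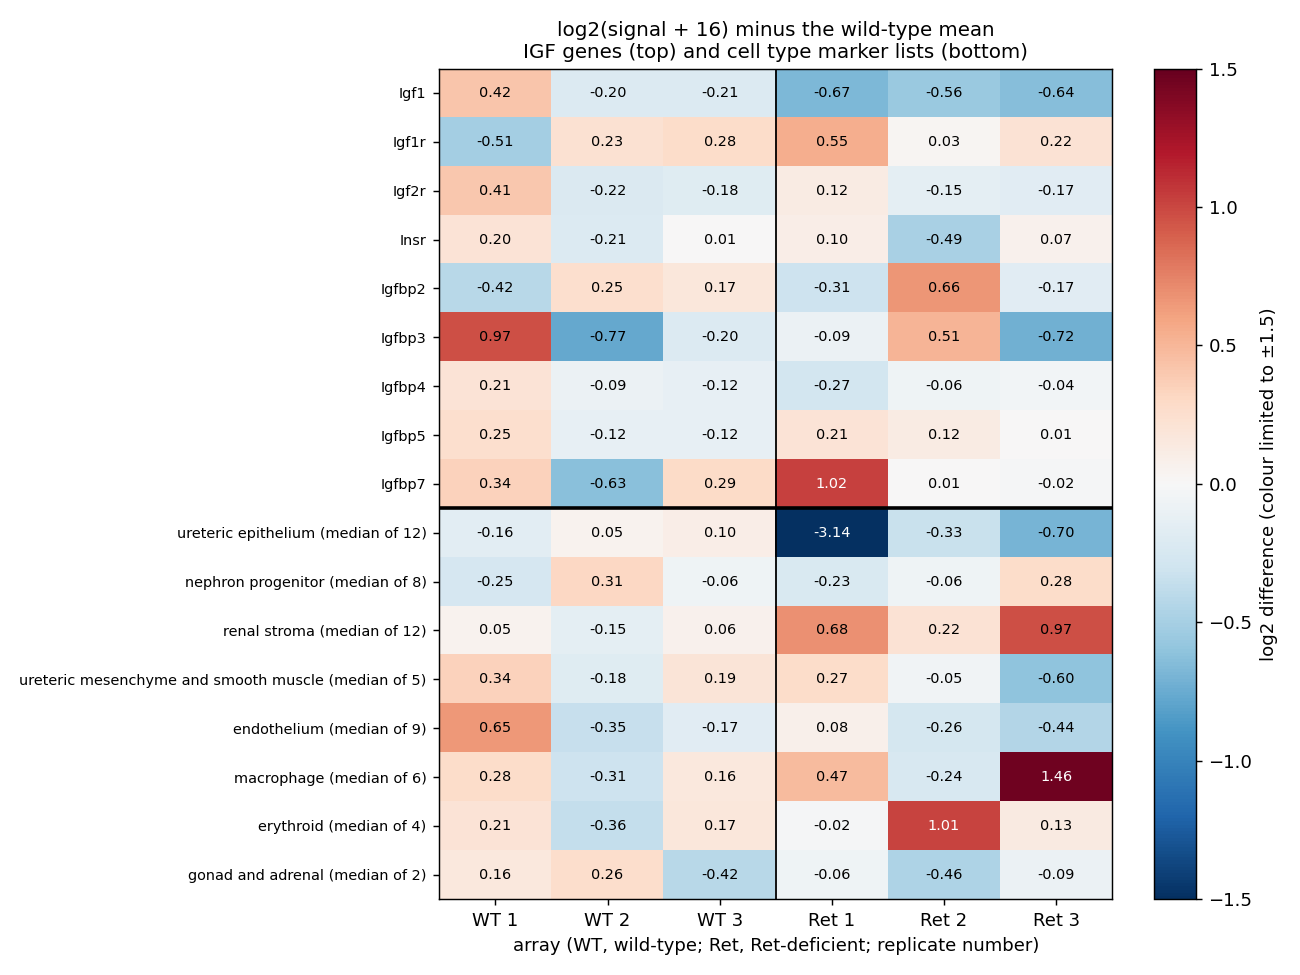
Log2(signal + 16) minus the wild-type mean on each of the 6 arrays, for the brightest probe set of the 9 IGF genes (top) and as the median of the tested markers of 8 cell type lists (bottom). Igf1 is at -0.67, -0.56 and -0.64 in Ret-deficient replicates 1 to 3, where the epithelial median is -3.14, -0.33 and -0.70.

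The median of the endothelial markers, like Igfbp3, was highest in wild-type replicate 1. Pecam1, Cdh5 and Emcn were not highest there, and Cdh5 was lowest. The median of the 9 endothelial genes stood at 0.65 there relative to the wild-type mean and at -0.44 to 0.08 on the other 5 arrays, with summed signals of 23759 to 42668 in wild-type and 20527 to 30377 in Ret-deficient kidneys. Igfbp3 stood at 0.97 in wild-type replicate 1 but also at 0.51 in Ret-deficient replicate 2, where the endothelial median was -0.26. Erythroid markers had their highest median, 1.01, in that same Ret-deficient array. The part of either cell type in the Igfbp3 values was not tested. Nephron progenitor markers had a median log2 difference of 0.00 over 8 tested genes, 4 negative and 4 positive, and those of ureteric mesenchyme and smooth muscle -0.27 over 5. Of the gonad and adrenal markers only Star and Wt1 were bright enough to test, and the groups overlapped at both. Of the 4 dimmer ones Cyp11a1, the gene of the enzyme that begins steroid synthesis, read 287.3, 297.6 and 234.7 in wild-type against 147.7, 149.1 and 190.4 in Ret-deficient arrays, above the bacterial controls on all 6 and without overlap. Nr5a1 read 67.3 to 262.5 with overlap, and Cyp17a1 and Amh read 105.9 or less on every array. The part of gonad and adrenal tissue in the IGF values was not tested.

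Genes whose arrays ran most like those of the 3 members with the widest range were found by the root mean square difference of centred log2 profiles over the 6 arrays. For Igfbp3 these were Cpz (0.130), Exoc3l2 (0.132) and Podxl (0.217), the last encoding podocalyxin, a sialomucin of podocytes and endothelium. Podxl read 9742 in wild-type replicate 1 and 2591 to 5302 on the other arrays. For Igfbp7 they were Tox2 (0.116), Ginm1 (0.149) and Fez1 (0.150), all 3 of them highest in Ret-deficient replicate 1. For Igfbp2 they were Slc16a1 (0.071), which encodes a monocarboxylate transporter, Rhobtb2 (0.087) and Parp8 (0.117), all highest in Ret-deficient replicate 2. With 11592 genes compared over 6 arrays, close profiles are easy to find, and the values are a description.

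The rest of the pathway was read from a list of 37 further genes, of which 34 were measured and 26 tested. None passed an adjusted p of 0.05, 14 were negative and 12 positive, and the median log2 difference was -0.02. The groups did not overlap at 1 of the 26, against 11.8% of all tested genes by brightest probe set. That gene was Stc2, which encodes stanniocalcin 2, a secreted inhibitor of the protease PAPP-A that cleaves IGFBP4. Stc2 read 1414, 1861 and 1735 in wild-type and 199.6, 761.0 and 580.8 in Ret-deficient kidneys at 1445186_at. Each Ret-deficient array lay below every wild-type array, and the lowest was replicate 1, where the epithelial markers were lowest too. Its log2 difference was -1.85 (SE 0.47; limma adjusted p = 0.861), and -1.30 without Ret-deficient replicate 1. The part of the epithelial signal in it was not tested. The other 2 Stc2 probe sets were too dim to test. Probe set 1449484_at read 117.5 to 214.4 in wild-type and 10.3 to 100.8 in Ret-deficient kidneys. It was no brighter than the bacterial controls on 4 arrays. The means of 1419503_at ran the other way, 116.7 in wild-type and 157.7 in Ret-deficient arrays. There the groups overlapped, and 1 array was no brighter than the bacterial controls. Pappa, the protease gene itself, had a mean of 596.3 ± 242.6 in wild-type arrays against 531.2 ± 288.0 in Ret-deficient arrays (SD, n = 3), with a log2 difference of -0.21 (SE 0.43). It was 0.09 without wild-type replicate 1 and -0.05 without Ret-deficient replicate 1.

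Igf2, the imprinted ligand that is abundant in embryonic tissue, was bright on every array. Its brighter probe set, 1448152_at, read 53589, 53097 and 57408 in wild-type and 59141, 58846 and 57133 in Ret-deficient kidneys (log2 difference 0.09, SE 0.14, 95% interval -0.25 to 0.44). Its dimmer one, 1415931_at, read 7086, 5078 and 4182 in wild-type and 4730.0, 2301 and 2964 in Ret-deficient kidneys (log2 difference -0.74, SE 0.32, adjusted p = 0.924), so the 2 probe sets differed in sign and the groups overlapped in both. At the dimmer one the overlap came from Ret-deficient replicate 1 alone. Its log2 difference was -1.02 without that array and -0.53 without wild-type replicate 1, while the brighter one gave 0.08 in each case. Among 20 tested genes of receptor substrates, adaptors and the PI3K-AKT branch the median was -0.02, from -0.64 for Pik3cb, a catalytic subunit of PI3K, to 0.38 for Pdpk1, the kinase that activates AKT. The groups overlapped at all 20. Irs4, an insulin receptor substrate gene below the brightness filter, had groups that did not overlap at 1441429_at. It read 373.1, 295.0 and 401.6 in wild-type and 187.2, 200.1 and 291.7 in Ret-deficient kidneys. The means of its other probe set, 1422248_at, ran the other way, 22.1 in wild-type and 86.0 in Ret-deficient arrays. There the groups overlapped, and 5 arrays were no brighter than the bacterial controls. Igfals, the gene of a carrier of IGF complexes in blood, had non-overlapping groups, but it was no brighter than the bacterial controls on any array.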

How the data were processed

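RNA of whole kidneys at embryonic day 12.5 was hybridised to Affymetrix whole-genome mouse arrays, per the study design text. The authors deposited linear intensities made with MAS5, as the submitters' processing notes name it; its version, scaling target and detection calls are not stated there. Trimmed by 2 percent at each end, the mean was 2500 on every array, and median signals ran from 258.9 to 351.6. Precision is limited by the number of arrays.

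Log2(signal + 16) was compared with limma 3.58.1 in R 4.3.3 (lmFit, eBayes), without centring because array medians differed by 0.42, under the limit of 0.5. After leaving out 64 control probe sets, the 22519 with a mean signal at or above the median were tested, with Benjamini-Hochberg adjustment over all. The test was also run on simulated data. Symbols came from the platform annotation (34958 probe sets with 1 symbol, 932 with several, 9211 with none), and 99.42% of the first were updated by gene ID with RefSeq. A gene's brightest tested probe set represents it. Background was gauged by the brightest of 27 bacterial control probe sets on each array (97.2 to 187 over the arrays). Tables and plots used Python 3.11.15, pandas 2.3.3, numpy 2.4.6 and matplotlib 3.10.9.

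The members, the lists of pathway genes and markers and the rule for named genes (all members, Igf2, pathway genes with separate groups, and the 3 nearest profiles of the 3 members with the widest range) were chosen with earlier results of these data known. The alternatives were pseudocounts of 1 and 64, the top 30 percent or no brightness filter, median centring, quantile normalization, a variance trend, weights for array quality, a replicate block, averaging of each gene's probe sets and each array left out. Leaving out both replicates numbered 1 was added after seeing the data.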

Additional observations from a re-analysis of the deposited data

How the results depend on the processing

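By brightest probe set or mean of probe sets, Igf1 and Igfbp5 kept their direction under all 17 alternatives. The changed brightness filters, the variance trend and the replicate block cannot alter a log2 difference here, so they bear only on adjusted p. Igf1 ranged from -0.73 to -0.39, with adjusted p from 0.4 to 1 in limma. Igfbp5 ranged from 0.05 to 0.23 at its brightest probe set and had 0.43 as the mean of its probe sets. Without wild-type replicate 1 the dimmer 1422313_a_at of Igfbp5 had -0.13, and 1419519_at of Igf1 had 0.00. No tested probe set of the group passed an adjusted p of 0.05 under any of the alternatives run. Over the whole array the count past that threshold was 0 in the main analysis, 2 with median centring, 1 with an intensity trend in the variance, 2 with array quality weights and 0 to 1 with 1 array left out. Group probe sets whose arrays do not overlap numbered 3 in the main analysis, 2 with median centring, 3 to 6 with 1 array left out and 9 without both replicates numbered 1, where 2 arrays remain per group. Over all tested probe sets the share was 10.8% in the main analysis. It was 21.5% without wild-type replicate 1 and 36.7% without both replicates numbered 1. With median centring or any other single array left out the share was not counted, so those counts cannot be set against it.

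Other log2 differences changed sign. With 1 array left out Igf2r ranged from -0.18 to 0.14, Insr from -0.21 to 0.08, Igfbp2 from -0.24 to 0.25, Igfbp3 from -0.49 to 0.39 and Igfbp7 from -0.0022 to 0.51. Median centring gave 0.05 for Igf2r, 0.0040 for Insr and 0.01 for Igfbp3, and moved the median of all tested probe sets by 0.112. Array quality weights gave 0.13 for Igf2r, -0.07 for Igfbp2 and 0.57 for Igfbp3. Without both replicates numbered 1 the values were -0.13 for Igf1r, 0.04 for Igf2r, 0.38 for Igfbp3 and 0.06 for Igfbp4, and the mean of the probe sets of Igfbp4 gave 0.02. The cause was not tested.

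Same-numbered replicates did not deviate together over all tested probe sets (correlations of 0.041, -0.036 and -0.113). Litter is not stated in the labels, so these values cannot tell whether they share more than a number. With the replicate number as a block, Igf1 had -0.62 with adjusted p = 0.989, and 0 probe sets passed.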
